A study of Mus musculus with 12 samples.

Results

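A set of 10 genes of fatty acid handling that respond to PPARα was followed in mouse liver after deletion of PPARγ from hepatocytes. They were chosen by name, as every row whose gene symbol was Cyp4a10, Cyp4a14, Cyp4a31, Cyp4a32, Vnn1, Pdk4, Creb3l3, Acot1, Acot2 or Acot3, which gave 10 of the 54532 genes in the count tables. The rule used names alone, and the names were picked with earlier results of these data known. Whole-liver RNA was sequenced in 12 libraries from male mice that all carried floxed PPARγ alleles and all ate a fast-food diet (FFD). The PPARγ-KO mice received AAV8-TBG-Cre, a virus whose thyroxine-binding globulin promoter limits Cre to hepatocytes, and the control littermates, labelled WT and called wild-type here, received AAV8-TBG-eGFP. Mice were injected at 8 weeks of age. The 4 groups of 3 libraries covered wild-type and PPARγ-KO liver after 2 and after 5 months of FFD. Other liver cells kept their floxed alleles intact, and the labels do not say more of a repeat than its number, so p-values measure the spread between these libraries.

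PPARα is a fatty acid-activated nuclear receptor that binds DNA together with a retinoid X receptor and switches on genes of fatty acid breakdown, most strongly during fasting. PPARγ recognizes closely related DNA sites, is scarce in normal hepatocytes and increases in fatty liver. Among the genes followed here, the Cyp4a enzymes hydroxylate fatty acids at the far (ω) end of the chain, the first step of a route that ends in dicarboxylic acids. Acot1 (cytosolic), Acot2 (mitochondrial) and Acot3 (peroxisomal) are thioesterases that split acyl-CoA into free fatty acid and CoA. Vnn1 is pantetheinase, which cuts pantetheine from CoA breakdown into pantothenate and cysteamine. Pdk4 phosphorylates and so slows pyruvate dehydrogenase, and Creb3l3 encodes a membrane-bound transcription factor of the fasted liver.

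Several of these genes have near-identical relatives, so the sequences are shown before the values. The Cyp4a members lie in 1 cluster on chromosome 4 (mm10), with Cyp4a14 at chr4:115486200-115496142 on the minus strand, and Cyp4a10 (chr4:115518264-115533649), Cyp4a31 (chr4:115563649-115579015) and Cyp4a32 (chr4:115600969-115621602) on the plus strand. Over the whole coding sequence Cyp4a10 was 97.2% identical to Cyp4a32, 96.6% to Cyp4a31 and 75.4% to Cyp4a14. Coding bases 25 to 114 of each are printed 5′ to 3′ from the GENCODE M21 transcripts of GRCm38, with capitals at positions that differ from Cyp4a10. They show how far a read from this stretch alone could tell the 4 apart, and shares over whole transcripts are given further below.
Cyp4a10: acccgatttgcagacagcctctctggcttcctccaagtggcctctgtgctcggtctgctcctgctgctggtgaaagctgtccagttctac
Cyp4a32: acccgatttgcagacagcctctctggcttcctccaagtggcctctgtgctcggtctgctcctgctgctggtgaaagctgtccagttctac
Cyp4a31: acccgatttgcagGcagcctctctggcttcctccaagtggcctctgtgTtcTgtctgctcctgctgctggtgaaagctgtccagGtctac
Cyp4a14: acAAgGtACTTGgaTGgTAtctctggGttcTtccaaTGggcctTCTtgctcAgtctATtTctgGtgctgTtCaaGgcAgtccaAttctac
In this stretch Cyp4a32 had the same letters as Cyp4a10, Cyp4a31 differed at 4 positions and Cyp4a14 at 29.

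The thioesterase members also form a cluster, on the plus strand of chromosome 12, with Acot2 at chr12:83987861-83993873, Acot1 at chr12:84009490-84018371 and Acot3 at chr12:84052144-84060402. Acot1 was 95.5% identical to Acot2 and 84.0% to Acot3 over the aligned coding bases. One aligned stretch of each is printed in the same way, with capitals at positions that differ from Acot1. It covers coding bases 52 to 141 of Acot1, 175 to 264 of Acot2, whose coding sequence starts further upstream, and 85 to 174 of Acot3.
Acot1: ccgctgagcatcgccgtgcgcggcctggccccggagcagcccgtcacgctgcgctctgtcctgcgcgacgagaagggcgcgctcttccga
Acot2: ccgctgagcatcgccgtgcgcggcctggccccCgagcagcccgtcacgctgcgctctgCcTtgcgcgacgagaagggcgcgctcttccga
Acot3: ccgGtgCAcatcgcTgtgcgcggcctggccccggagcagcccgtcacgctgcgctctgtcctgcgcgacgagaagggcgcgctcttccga
Against Acot1, Acot2 differed at 3 and Acot3 at 4 of these 90 positions, and long runs between the capitals carried no difference.

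The share of each gene's transcript that another gene also holds measures how far its reads could be split. Of all 50-base stretches, 43.8% of those of Cyp4a32, 29.8% of Cyp4a10 and 20.5% of Cyp4a31 occurred in another gene's transcripts, against 0.24% of Cyp4a14. For Acot2, Acot1 and Acot3 the shares were 27.7%, 19.2% and 19.1%. Vnn1 and Creb3l3 had no such stretch, and Pdk4 had 1.4%. At 100 bases the highest share was the 18.1% of Cyp4a32. Counts of Cyp4a10, Cyp4a31, Cyp4a32 and of the Acot members are therefore less certain than those of Cyp4a14, Vnn1, Pdk4 and Creb3l3, and the counting rule for such reads was not given in the sources used here. Acot3 also overlapped 4732463B04Rik on the opposite strand over 1664 bases, a gene with 6 to 178 counts per library, and whether counting used strand was not stated. On the same strand it overlapped Gm49366 over 6470 bases, a gene with 0 counts in every library. Gm49366 held 11.0% of the 50-base stretches of Acot3, the largest share of any gene.

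**Figure D1:**
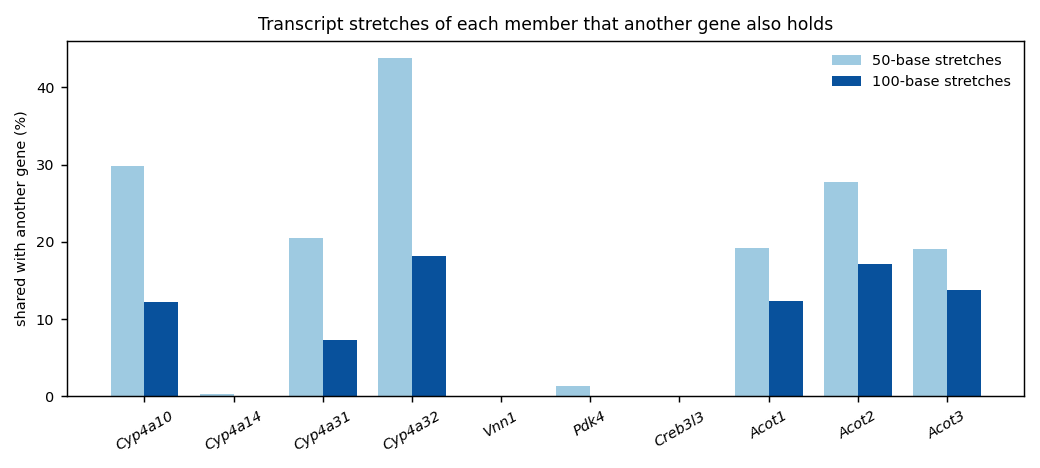
Percent of the 50-base (light bars) and 100-base (dark bars) stretches of each gene's annotated transcripts that occur in at least 1 other gene's transcripts. Cyp4a32 stands highest at 43.8% and 18.1%, and Cyp4a14, Vnn1, Pdk4 and Creb3l3 lie between 0 and 1.4%.

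RefSeq promoter windows (GRCm38.p6) matched 6 of the 10 genes, Cyp4a32, Pdk4, Creb3l3, Acot1, Acot2 and Acot3, in 8 windows. The classical PPAR site is a direct repeat of AGGTCA with 1 free base between the copies, which was searched on both strands over the whole of each window. Allowing 2 mismatches, 3.86% of all 32851 windows of 300 bases held a match, and among these 8 windows only the first of Creb3l3 did, 209 bases before that window's start site. This window (chr10:81092542-81092841) lies inside the annotated gene (chr10:81084324-81098874, minus strand). The second window, at the annotated gene start (chr10:81098823-81099122), held no match. The match is shown in capitals with 6 bases on either side.
Creb3l3: gtaagtAGGGGAGAGGTCAcacaga
The Acot3 promoter held no match. Its 250 bases before the start (chr12:84051894-84052143, plus strand) are printed because Acot3 varied most of all the genes followed.
Acot3: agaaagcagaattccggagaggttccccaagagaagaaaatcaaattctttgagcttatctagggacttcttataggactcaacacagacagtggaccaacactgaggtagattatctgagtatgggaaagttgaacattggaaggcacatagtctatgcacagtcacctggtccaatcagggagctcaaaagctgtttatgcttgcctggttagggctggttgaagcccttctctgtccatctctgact
A match is a match of letters only, and its absence says nothing of binding elsewhere in the gene.

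Library totals ranged from 16367775 to 27452284 counts. Pparg itself, counted over the whole gene, was higher in the libraries labelled KO, at 50.3 to 66.3 against 37.3 to 41.1 CPM (counts scaled to a common library total, TMM-adjusted) at 2 months and 75.6 to 93.4 against 37.1 to 41.4 CPM at 5 months. A floxed allele loses only the exons between its loxP sites, so this count does not check the genotype labels, and every direction given here is that of the labelled groups. Cidec, a lipid droplet protein that PPARγ is known to induce, was lower in the libraries labelled KO at both times (log2 fold change −3.85, adjusted p = 0.0117, and −2.70, adjusted p = 2.91e-06). The hepatocyte markers were present in every library (summed CPM of 9 genes from 55270 to 88090), as the liver label says. At 5 months 2 of the 9 were called higher with KO, where 8.90% of all genes were, and 2 had log2 fold changes below 0 (median 0.22). Alb, the most abundant of them, was 1 of those called (log2 fold change 0.64, adjusted p = 0.00121).

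All 10 genes passed the filter on low counts in every comparison. Per kilobase of transcript, the highest means in wild-type liver at 2 months were those of Cyp4a10, with 149 ± 43.2 CPM per kilobase (SD, n = 3), and Cyp4a14, with 142 ± 25.7, and these did not differ beyond their spread. Creb3l3 followed at 93.3 ± 7.89, Vnn1 at 61.3 ± 6.39 and Cyp4a32 at 20.2 ± 7.51 CPM per kilobase. Acot2, Acot3, Acot1 and Pdk4 lay between 6.89 and 11.4 with overlapping spreads, and Cyp4a31 was lowest at 2.82 ± 1.00. Creb3l3 varied least over the 12 libraries, its highest CPM being 1.27 times its lowest, and Acot3 varied most, at 25.2 times.

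**Figure D2:**
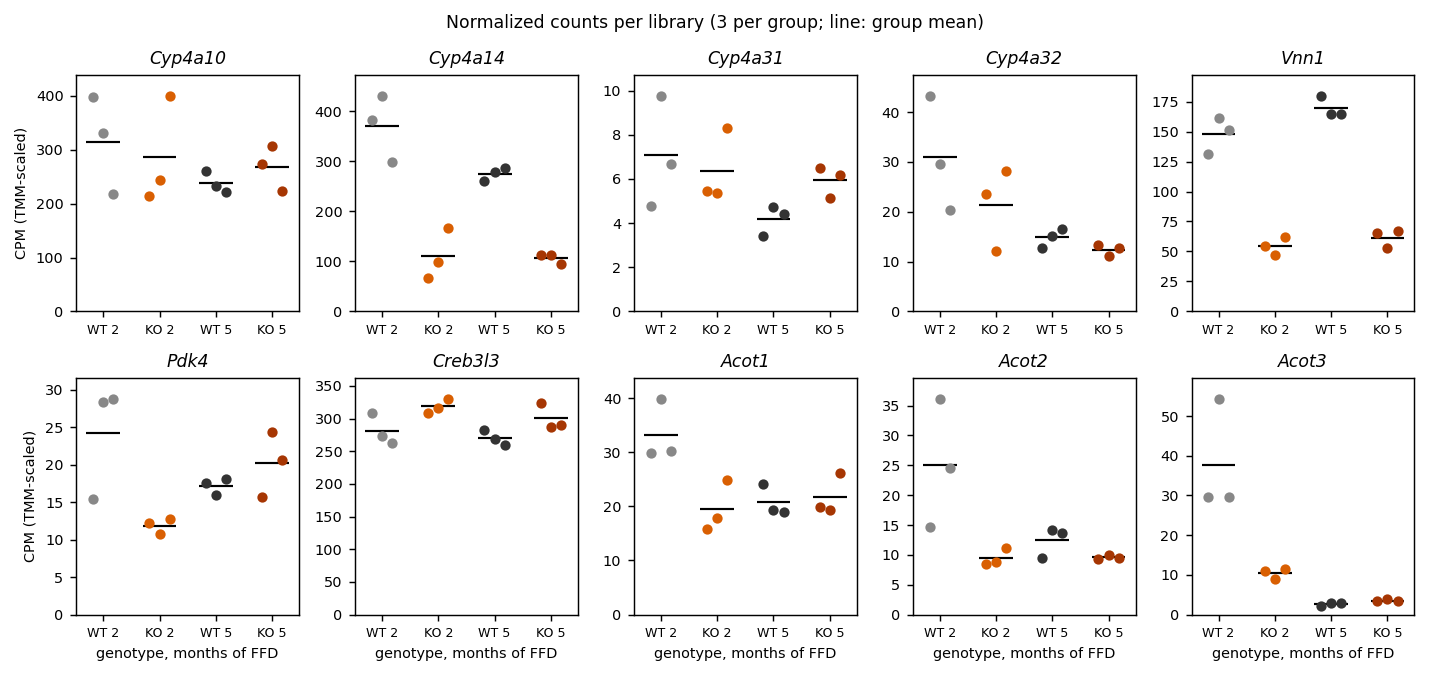
CPM of each gene in each of the 12 libraries, by genotype (WT or KO) and months of FFD. Points are libraries, lines are group means of 3, and each panel has its own axis from 0. Vnn1 and Cyp4a14 stand apart by genotype at both times, and Acot3 falls from 29.5 to 54.3 CPM in wild-type liver at 2 months to 2.15 to 2.92 at 5 months.

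The first question was what loss of PPARγ did to these genes after 2 months of FFD. Vnn1 and Acot3 fell in PPARγ-KO liver, and the other 8 did not pass the test (edgeR quasi-likelihood, Benjamini-Hochberg adjusted over 14573 genes). This fit, which gave the main values below, held no block for the replicate number. With that block Vnn1 and Acot1 were called and Acot3 was not (adjusted p = 0.0608). The median log2 fold change of the 10 was −0.91, against −0.0048 over all genes tested. Of those genes, 1.78% were called lower and 1.78% higher, against 2 of the 10 lower. Since the names were picked with earlier results of these data known, this share describes the 10 and tests nothing. In 6 of the 10 (Cyp4a14, Vnn1, Pdk4, Acot1, Acot2 and Acot3) every PPARγ-KO library lay below every wild-type library, where 11.3% of all genes did so.

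In wild-type liver at 2 months Vnn1, the pantetheinase, had 131, 162 and 151 CPM, and in PPARγ-KO liver 54.7, 47.4 and 61.7 CPM. The 2 groups lay far apart, with no library between 61.7 and 131 CPM. The level was 2.73-fold lower in PPARγ-KO liver (log2 fold change −1.45, SE 0.11, adjusted p = 0.00058). This call held in all 14 alternative analyses, among which the adjusted p reached at most 0.00644.

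Acot3, the peroxisomal thioesterase, had 29.6, 54.3 and 29.5 CPM in wild-type and 10.9, 9.05 and 11.5 CPM in PPARγ-KO liver. The groups did not overlap, and 1 wild-type library stood well above the other 2. The fall was 3.62-fold (log2 fold change −1.86, SE 0.28, adjusted p = 0.0253). Leaving out the first, the second or the third knockout library kept the log2 fold change at −1.88, −1.76 and −1.92, with adjusted p = 0.112, 0.0946 and 0.098. With the replicate number as a block, taken as a possible pairing at 2 months, it was −1.79 with adjusted p = 0.0608 (over all alternatives 1.44e-13 to 0.112).

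Cyp4a14, the ω-hydroxylase with few shared reads, had 382, 430 and 298 CPM in wild-type and 66.2, 98.3 and 166 CPM in PPARγ-KO liver at 2 months. No library overlapped, but the 3 knockouts spread over a wide range. The log2 fold change of −1.76 (SE 0.38) missed the threshold at adjusted p = 0.0944. Without the third knockout library, the one at 166 CPM, it was −2.17 with adjusted p = 0.0181, within a range of 0.000888 to 0.286 over the alternatives.

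Pdk4, the pyruvate dehydrogenase kinase, had 15.5, 28.4 and 28.7 CPM in wild-type and 12.2, 10.7 and 12.7 CPM in PPARγ-KO liver. The lowest wild-type library, the first, came close to the knockouts. Its log2 fold change was −1.04 (SE 0.24, adjusted p = 0.0662), and −1.27 with adjusted p = 6.09e-05 when that library was left out. Acot2, the mitochondrial thioesterase, showed the same layout, with 14.6, 36.1 and 24.5 CPM in wild-type and 8.46, 8.87 and 11.2 in PPARγ-KO liver. Its log2 fold change was −1.40 (SE 0.34, adjusted p = 0.101), and −1.67 with adjusted p = 0.00137 without the first wild-type library. Acot1, the cytosolic thioesterase, had 29.8, 39.8 and 30.2 CPM against 15.8, 17.9 and 24.8, with log2 fold change −0.77 (SE 0.18, adjusted p = 0.0662). The call for Acot1 was gained with the replicate block (adjusted p = 0.0426, over all alternatives 1.92e-10 to 0.192) and without the third knockout library (0.0209).

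The 3 Cyp4a genes that share the most sequence did not separate by genotype at 2 months. Cyp4a10 ranged from 217 to 397 CPM in wild-type and from 214 to 400 in PPARγ-KO liver (log2 fold change −0.15, adjusted p = 0.864). Cyp4a31 and Cyp4a32 gave −0.15 (adjusted p = 0.825) and −0.54 (adjusted p = 0.571). The 95% intervals were wide, from −0.78 to 0.48 for Cyp4a31 and from −1.64 to 0.55 for Cyp4a32, so differences within them remain possible. Creb3l3 was the gene with knockout libraries all above wild-type, at 309 to 329 against 263 to 308 CPM, which 13.0% of all genes showed. Its log2 fold change was 0.17 (adjusted p = 0.303), and 0.24 with adjusted p = 0.0419 without the first wild-type library.

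The same question was then asked at 5 months. Cyp4a14 and Vnn1 fell in PPARγ-KO liver, and the other 8 genes were not called. The median log2 fold change of the 10 was 0.12, against −0.0058 over all 14138 genes tested. Since 9.51% of all genes were called lower at 5 months and 8.90% higher, 2 of 10 lower is closer to the background than at 2 months. Libraries did not overlap for 5 genes, with Cyp4a14 and Vnn1 below (19.1% of all genes) and Cyp4a31, Creb3l3 and Acot3 above (15.7%).

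Vnn1 had 180, 165 and 164 CPM in wild-type and 65.5, 52.7 and 66.6 CPM in PPARγ-KO liver at 5 months. It was thus 2.73-fold lower again (log2 fold change −1.45, SE 0.086, adjusted p = 9.97e-07). Cyp4a14 had 260, 279 and 286 CPM in wild-type and 113, 114 and 94.0 CPM in PPARγ-KO liver. The knockout libraries now lay close together, unlike those at 2 months. The fall was 2.55-fold (log2 fold change −1.35, SE 0.082, adjusted p = 9.97e-07), and both calls held in all 14 alternatives.

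Acot3 had 2.15, 2.92 and 2.88 CPM in wild-type and 3.30, 3.86 and 3.31 CPM in PPARγ-KO liver at 5 months, from 36 to 75 counts per library. Its knockout libraries were now the higher ones. The log2 fold change of 0.41 (SE 0.21) did not pass the test (adjusted p = 0.216). Cyp4a31, at 3.41 to 4.73 in wild-type and 5.15 to 6.50 CPM in PPARγ-KO liver, gave 0.52 (adjusted p = 0.0668), and Creb3l3 0.16 (adjusted p = 0.129).

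For the remaining genes the 2 genotypes overlapped at 5 months. Acot2 gave −0.36 (adjusted p = 0.116) and Cyp4a32 −0.26 (adjusted p = 0.179), and both were called lower without the first wild-type library (−0.53 with adjusted p = 0.00416 and −0.36 with adjusted p = 0.0419). Pdk4 gave 0.24 (adjusted p = 0.283) and 0.40 with adjusted p = 0.0253 without the first knockout library. Cyp4a10 gave 0.18 (adjusted p = 0.303) and 0.30 with adjusted p = 0.0465 without the third knockout library. Acot1, at 0.07, had a 95% interval from −0.21 to 0.36.

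**Figure D3:**
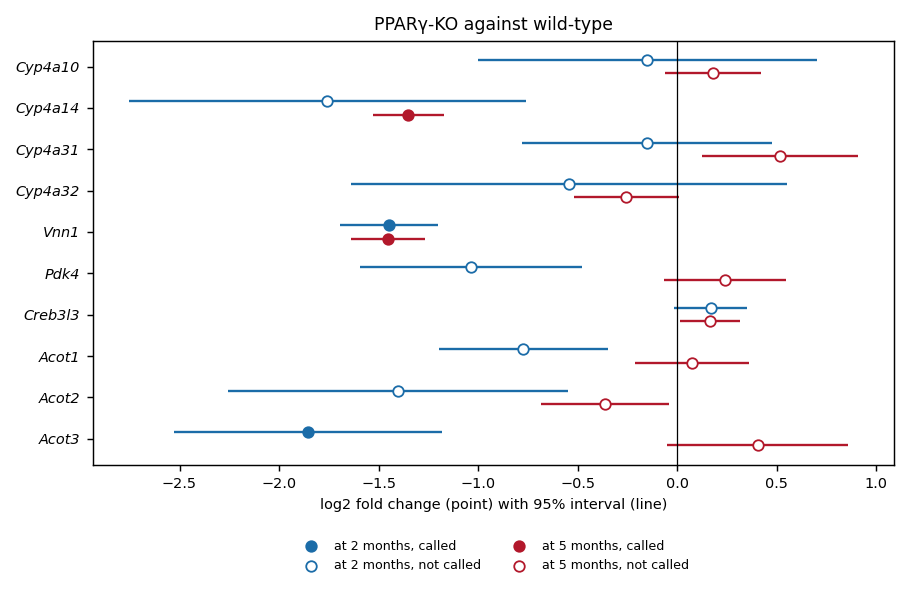
Log2 fold change of PPARγ-KO against wild-type (points) with its 95% interval (lines) at 2 months (blue) and 5 months (red). Filled points passed an adjusted p of 0.05 in the fits without a replicate block. This held for Vnn1 (−1.45 at both times), Acot3 at 2 months (−1.86) and Cyp4a14 at 5 months (−1.35).

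Within each library the ratio of Cyp4a14 to Cyp4a10, per kilobase, removes library-wide scaling. This ratio was picked after the values were seen and is given with no test. It was 0.78, 1.05 and 1.11 in wild-type liver at 2 months and 0.81, 0.97 and 1.04 at 5 months. In PPARγ-KO liver it was 0.25, 0.33 and 0.34 at 2 months and 0.34, 0.30 and 0.34 at 5 months. The genotypes did not overlap at either time, and the times overlapped within each genotype. The ratio of Acot3 to Acot1 behaved otherwise, at 1.12 to 1.55 in wild-type and 0.53 to 0.79 in PPARγ-KO liver at 2 months but 0.10 to 0.17 and 0.14 to 0.23 at 5 months.

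**Figure D4:**
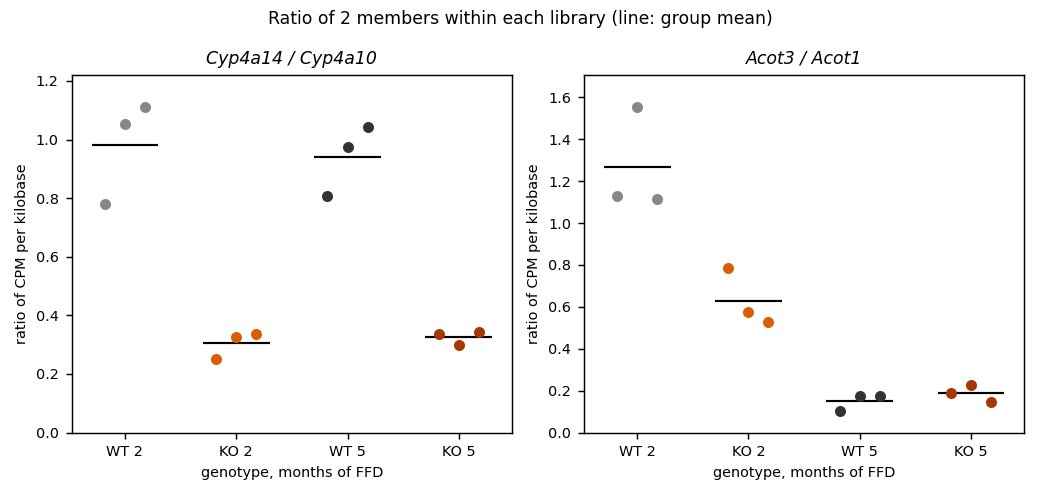
Ratio of CPM per kilobase of Cyp4a14 to Cyp4a10 (left) and of Acot3 to Acot1 (right) in each library, by genotype and months of FFD. Points are libraries and lines are means of 3. The left ratio separates the genotypes at both times, and the right one lies above 0.5 in every library at 2 months and below 0.25 in every library at 5 months.

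The question of how diet time acted was put to each genotype in turn. Clock genes moved strongly between 2 and 5 months in these libraries, with 4 of 17 higher and 12 lower in wild-type liver (23.8% and 22.7% of all genes) and 4 higher and 11 lower in PPARγ-KO liver (22.7% and 22.2%). Their summed level went from 1137 to 1273 CPM down to 566 to 584 CPM in wild-type liver and from 1251 to 1277 CPM down to 724 to 764 CPM in PPARγ-KO liver. Arntl, a core clock activator, rose by 2.13 and 1.63 on the log2 scale in wild-type and PPARγ-KO liver. Diet time, the age of the mice, the hour of collection and any batch of libraries cannot be told apart in these comparisons.

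In wild-type liver 5 of the 10 genes fell between 2 and 5 months, Acot3, Acot1, Cyp4a32, Cyp4a31 and Cyp4a14. Over all 14491 genes tested, 22.7% were called lower and 23.8% higher, and the median log2 fold change was −0.60 for the 10 genes and −0.013 for all genes. Acot3 fell 14.4-fold, from 29.5 to 54.3 CPM down to 2.15 to 2.92 CPM (log2 fold change −3.84, SE 0.32, adjusted p = 0.000169). Acot1 fell 1.62-fold, from 29.8 to 39.8 CPM down to 18.9 to 24.1 (−0.70, SE 0.13, adjusted p = 0.00194). These calls held in all 14 alternatives for both genes. Every library at 5 months lay below every library at 2 months for these 5 genes and Acot2, as for 27.0% of all genes, and above for Vnn1, as for 29.8%.

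The calls of the Cyp4a members in wild-type liver were lost in several alternatives, mostly with fold changes of much the same size. Cyp4a14 gave −0.44 (SE 0.12, adjusted p = 0.0141). It gave −0.32 without the second wild-type library at 2 months (adjusted p = 0.051), −0.39 without the first at 5 months (0.0607) and −0.44 in a fit of all 12 libraries (0.236). Cyp4a31 gave −0.78 (SE 0.26, adjusted p = 0.0314). Of the leave-one-out fits, the one without the first wild-type library at 2 months kept its call, the one without the second gave −0.47 (adjusted p = 0.136), and the other 4 gave −0.87 to −0.64 (0.0526 to 0.111). Cyp4a32 gave −1.08 (SE 0.29, adjusted p = 0.025), and without the second wild-type library at 2 months or any 1 of those at 5 months it was −1.16 to −0.97 (0.0575 to 0.0901). With Cyp4a10, Cyp4a31 and Cyp4a32 summed, the log2 fold change was −0.47 with adjusted p = 0.0986. Cyp4a10 supplied most of these counts (315 CPM against 7.07 and 31.0 on average in wild-type liver at 2 months). The sum therefore describes Cyp4a10 rather than Cyp4a31 or Cyp4a32.

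Acot2 and Pdk4 were called when the first wild-type library at 2 months was left out (−1.29 with adjusted p = 0.00358, and −0.75 with 6.83e-05) and not otherwise in the leave-one-out fits. With all libraries they gave −1.02 (adjusted p = 0.0697) and −0.51 (adjusted p = 0.104). Cyp4a10 gave −0.42 (adjusted p = 0.144) and −0.63 with 0.00246 without the third wild-type library at 2 months. Vnn1 (0.18, adjusted p = 0.117) and Creb3l3 (−0.08, adjusted p = 0.495) were not called in wild-type liver.

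In PPARγ-KO liver 2 of the 10 genes changed with time, in opposite directions. Pdk4 rose from 10.7 to 12.7 CPM up to 15.6 to 24.3 CPM (log2 fold change 0.75, SE 0.15, adjusted p = 0.00281). Acot3 fell 3.02-fold, from 9.05 to 11.5 CPM down to 3.30 to 3.86 (−1.60, SE 0.15, adjusted p = 1.55e-05). Both held in all 14 alternatives. Since 22.7% of all 14478 genes were called higher and 22.2% lower, 1 gene in each direction is no more than the background. The times did not overlap for these 2 genes and overlapped for the other 8, where 26.9% of all genes lay wholly below and 28.7% wholly above. Cyp4a32 gave −0.80 (adjusted p = 0.103) and −1.07 with adjusted p = 5.91e-05 without the second knockout library at 2 months, and the other 7 genes lay between −0.12 and 0.16.

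**Figure D5:**
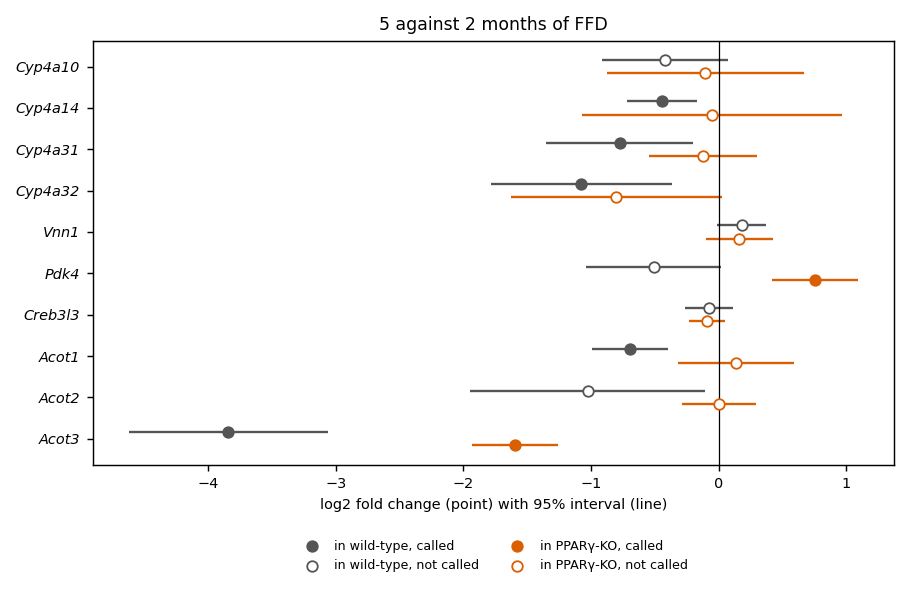
Log2 fold change of 5 against 2 months of FFD (points) with its 95% interval (lines) in wild-type (gray) and PPARγ-KO liver (orange). Filled points passed an adjusted p of 0.05. Acot3 is lowest in both genotypes (−3.84 and −1.60), and Pdk4 rises in PPARγ-KO liver (0.75).

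Whether the effect of PPARγ loss itself differed between the times was tested as the difference of the 2 differences over all 12 libraries. Acot3 was the gene called among the 10, with a PPARγ-KO effect higher by 2.25 on the log2 scale at 5 than at 2 months (SE 0.36, adjusted p = 0.0112), where 0.661% of 15127 genes were called higher and 0.912% lower. The call held in all 19 alternatives. By an unadjusted p below 0.05 and a 1.3-fold difference, which 10.3% of all genes passed, Acot1, Acot2, Acot3 and Pdk4 did. Pdk4 gave 1.27 (adjusted p = 0.08), and 1.51 with adjusted p = 0.000502 without the first wild-type library at 2 months or 1.43 with 0.0426 without the first knockout library at 5 months. Acot1 gave 0.83 (adjusted p = 0.15), and 1.05 with 0.0385 without the third knockout library at 2 months. Acot2 gave 1.03 (adjusted p = 0.274), and 1.31 with 0.0134 without the first wild-type library at 2 months. For Vnn1 the difference was −0.02, with a 95% interval from −0.34 to 0.31, and for Cyp4a14 it was 0.39, from −0.54 to 1.33.

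Other genes of the same pathways were taken from lists. Their counts stand against 1.78% of all genes called in each direction at 2 months, 8.90% higher and 9.51% lower at 5 months, and, over time, 23.8% higher and 22.7% lower in wild-type and 22.7% higher and 22.2% lower in PPARγ-KO liver. Of 10 tested genes of ω-hydroxylation outside the members, Aldh3a2, the fatty aldehyde dehydrogenase that acts after the hydroxylases, was lower in PPARγ-KO liver at 2 months (log2 fold change −0.82, adjusted p = 0.00402) and at 5 months (−0.63, adjusted p = 0.000297). At 5 months Cyp4f14 rose (0.78, adjusted p = 0.000214) and Cyp4b1 fell (−0.50, adjusted p = 0.00202). In wild-type liver 5 of these 10 fell over time, led by Por, the reductase that feeds electrons to P450 enzymes (−0.93, adjusted p = 9.98e-06), and Cyp4a12a (−2.06, adjusted p = 0.000228), with Aldh3a2, Cyp4f15 and Cyp4f17 between −0.51 and −0.31. In PPARγ-KO liver 7 of the 10 fell over time, where 22.2% of all genes did, Cyp4f15 with the smallest adjusted p (−0.61, adjusted p = 6.47e-05), with Cyp4b1, Cyp4f13, Cyp4f14, Cyp4f17, Cyp4v3 and Aldh3a2 between −0.58 and −0.20.

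Among 10 tested acyl-CoA thioesterases outside the members, 2 were higher and 2 lower in PPARγ-KO liver at 5 months, where 8.90% and 9.51% of all genes were. At 2 months the lowest adjusted p among the 10 was 0.0511 (Acot13). Acot11 (1.17, adjusted p = 6.91e-06) and Acot4 (0.48, adjusted p = 0.0017) rose, and Acot9 (−0.48, adjusted p = 0.0113) and Acot13 (−0.32, adjusted p = 0.0123) fell. Acot4, a peroxisomal thioesterase of the same gene cluster, had mean CPM of 180 and 106 in wild-type and PPARγ-KO liver at 2 months and 40.7 and 56.3 at 5 months, the same order as Acot3. Counts of Acot3, Acot4 and Acot5 summed gave −0.92 at 2 months (adjusted p = 0.0795) and 0.47 at 5 months (adjusted p = 0.0019), and since Acot4 supplied most of these counts, the sums describe Acot4 rather than Acot3. Its PPARγ-KO effect was also higher at 5 than at 2 months, by 1.24 on the log2 scale (SE 0.24, adjusted p = 0.0362). Acot5, of the compared thioesterases the one most like Acot3 in coding sequence (85.3% identical), was almost silent, with group means of 0.0195 to 0.136 CPM. Over time Acot4 fell in both genotypes (−2.16 in wild-type, adjusted p = 8.93e-05, and −0.92 in PPARγ-KO liver, adjusted p = 0.000196), as did Acot12, and Acot11 fell in wild-type liver (−0.88, adjusted p = 0.00532). Acot9, Acot13 and the bile acid-conjugating enzyme Baat rose over time in both, Acot9 the most (1.07, adjusted p = 0.00372, and 1.32, adjusted p = 2.62e-05).

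Around Vnn1, 1 of 11 tested genes of CoA turnover fell at 2 months, Slc5a6, the pantothenate and biotin transporter (log2 fold change −1.24, adjusted p = 0.00245). At 5 months Slc5a6 was again lower (−0.43, adjusted p = 0.0218) and Pank3, a pantothenate kinase, was higher (0.25, adjusted p = 0.0208). For both genes the PPARγ-KO effect was higher at 5 than at 2 months, by 0.79 for Slc5a6 (adjusted p = 0.0415) and 0.50 for Pank3 (adjusted p = 0.014). Around Pdk4, Pdha1, a subunit of pyruvate dehydrogenase, was the 1 of 12 genes called at 2 months (−0.34, adjusted p = 0.0202). At 5 months 5 of the 12 rose, including the other kinases Pdk1 (0.64, adjusted p = 0.000228) and Pdk2 (0.33, adjusted p = 0.00502). Around Creb3l3, Apoc3, an inhibitor of triglyceride clearance, rose at both times (0.39, adjusted p = 0.0469, and 0.27, adjusted p = 0.0433). Cidec fell at both, as given with the labels, and at 5 months Apoa4 rose (0.58, adjusted p = 0.00454) and Apcs fell (−0.91, adjusted p = 0.0458).

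Of 43 other genes known to respond to PPARα, 11 were lower in PPARγ-KO liver at 2 months and the other 32 were not called, with a median log2 fold change of −0.28. Those with the smallest adjusted p included Acaa1b (−0.89, adjusted p = 0.00728) and Acaa1a (−0.55, adjusted p = 0.0174), both peroxisomal thiolases, and the droplet coat protein Plin2 (−0.73, adjusted p = 0.011). At 5 months 12 were lower and 3 higher, with a median of −0.14. Acaa1b (−0.92, adjusted p = 2.66e-05), Plin2 (−0.75, adjusted p = 1.25e-05) and Crot (−0.56, adjusted p = 0.000192) were lower, and the bile acid enzyme Cyp8b1 (1.29, adjusted p = 0.000303) was higher. Over time 8 of the 43 rose and 14 fell in wild-type liver, and 12 rose and 9 fell in PPARγ-KO liver, against 23.8% and 22.7%, and 22.7% and 22.2%, of all genes. Over time Cpt1a, the carnitine transferase that admits fatty acids to mitochondria, was lower in both (−1.05, adjusted p = 1.78e-05, and −0.73, adjusted p = 6.24e-05) and the droplet protein Plin5 higher in both (1.09, adjusted p = 1.15e-05, and 1.40, adjusted p = 1.32e-06). Ppara, the receptor gene itself, was at 284 and 300 CPM on average in PPARγ-KO and wild-type liver at 2 months (−0.09, adjusted p = 0.723). It was higher in PPARγ-KO liver at 5 months (0.45, adjusted p = 0.00125) and fell over time in wild-type liver, from a mean of 300 to 107 CPM (adjusted p = 2.28e-06). The fall was not particular to wild-type liver, since the PPARγ-KO mean was also lower at 5 than at 2 months.

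Over the 12 libraries, the gene whose log2 CPM ran most like that of Vnn1 was Plin2 (Pearson r = 0.98), followed by Ermp1 (0.976) and Cidec (0.97), out of 15127 genes searched. Acot3 ran most like Acot4 (0.984), Acot2 like Pex11a (0.959), Cyp4a14 like Adgrg2 (0.952), Cyp4a32 like Inpp5k (0.941), Pdk4 like Lipa (0.931) and Creb3l3 like Gphn (0.922). For Cyp4a31, Acot1 and Cyp4a10 the closest genes were Hadha (0.895), Hlcs (0.875) and Rasa1 (0.862). Among the 10 themselves the closest pair was Cyp4a14 and Vnn1 (0.899), while Cyp4a14 and Cyp4a10 gave 0.324. These values describe 12 libraries that share groups, and carry no test.

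In whole liver, fewer cells of a type and less RNA per cell cannot be told apart. At 5 months 8 of 10 macrophage markers were called lower in PPARγ-KO liver, where 9.51% of all genes were. Their summed level was 467 to 637 CPM against 1042 to 1164 in wild-type, while at 2 months the sums overlapped (372 to 415 against 339 to 448). The summed stellate cell markers were lower in PPARγ-KO liver at both times, at 431 to 445 against 567 to 717 CPM and 493 to 560 against 632 to 776 CPM. Of these 8 markers, 1 and 4 were called lower, where 1.78% and 9.51% of all genes were. The summed cholangiocyte markers lay below wild-type at 2 months (67.3 to 88.0 against 99.4 to 180 CPM) and overlapped at 5 months. At 2 months 0 of these 5 markers were called, and 3 of the 5 had log2 fold changes above 0. The endothelial sums overlapped at 2 months and lay below wild-type at 5 months (210 to 221 against 233 to 241 CPM). At 5 months 2 of the 6 endothelial markers were called lower, where 9.51% of all genes were. The summed hepatocyte markers were higher in PPARγ-KO liver at both times, at 74160 to 88090 against 55270 to 66890 CPM and 76100 to 86880 against 55930 to 60410 CPM. Such sums follow the most abundant markers. Of the 9, 2 were called higher at each time, where 1.78% and 8.90% of all genes were. At 5 months 7 of 17 clock genes and 6 of 15 genes of feeding and glucocorticoid response were also higher in PPARγ-KO liver, against 8.90% of all genes, including Fkbp5 (2.54, adjusted p = 9.2e-08), and 3 of those 15 were lower, against 9.51%. At 2 months the lowest adjusted p of the 17 clock genes was 0.0697 (Nfil3). The part of these shifts in the changes of Vnn1, Cyp4a14 and the Acot genes was not tested.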

How the data were processed

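Liver RNA of 12 libraries was sequenced by a company, and the authors deposited raw read counts per gene. Per the labels' processing notes reads were aligned with HISAT2 to mm10, whereas the study's methods name STAR. The counting program, annotation and strand setting were not given in the sources used here. Deposited gene names that a spreadsheet had turned into dates (27) were restored by identifier. The 10 genes and the lists were chosen with earlier results of these data known.

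Counts were tested in R 4.3.3 with edgeR 4.0.16 (filterByExpr, TMM scaling, robust quasi-likelihood F test, two-sided, Benjamini-Hochberg over all genes tested, threshold 0.05), in one fit per comparison with 2 groups of 3 libraries. All 12 libraries entered the difference between times. CPM used TMM-scaled totals. Alternatives are given in the closing section and included DESeq2 1.42.0. The fits were tested on simulated data. Named genes were all 10 members, Pparg, called genes of the ω-hydroxylation and thioesterase lists, up to 6 called genes of each other list by adjusted p, and the 3 genes closest by Pearson r. Some called genes of the lists stand unnamed.

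Replicate numbers shared by the groups were checked on 5000 genes. In the groups of 2 months, equally numbered libraries gave r = 0.235, 0.357 and 0.128, against −0.304 to 0.136 for unequal numbers. The block was taken as a possible pairing there and not elsewhere. The main fits held no block, and results with it are given as an alternative.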

Additional observations from a re-analysis of the deposited data

Results flagged for a closer look

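The effect of PPARγ loss on Acot3 differed between the times by a test of the difference itself, at 2.25 on the log2 scale (5 minus 2 months, SE 0.36, edgeR quasi-likelihood adjusted p = 0.0112). All 3 knockout libraries lay below all wild-type libraries at 2 months, as for 11.3% of all genes, and above them at 5 months, as for 15.7%. The difference at 5 months was itself not called (log2 fold change 0.41, adjusted p = 0.216 by the same test). The counts behind the 2 times were unequal, at 159 to 1062 per library at 2 months and 36 to 75 at 5 months.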

How the results depend on the processing

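Of 800 log2 fold changes of single genes under the alternative settings, 695 kept their direction and their side of the threshold, 52 gained a call, 21 lost one and 32 changed sign. The setting with an unadjusted p and a 1.3-fold change kept the main values and changed the threshold alone, so no sign could change there. No called value changed sign. At 2 months the 2 genes called became 6 with DESeq2, 6 with an unadjusted p below 0.05 and a 1.3-fold change (11.0% of all genes), 6 with all 12 libraries in 1 fit, 4 without a filter and 1 with paralogs summed, and 1 to 5 when 1 library was left out. At 5 months leaving out 1 library gave 2 to 4 genes. Over time in wild-type liver the 5 genes became 8 with DESeq2 and 2 to 7 with 1 library left out. For the difference between times the 1 gene became 3 with DESeq2, 3 without a filter, 4 with the unadjusted rule (10.3% of all genes) and 1 to 3 with 1 library left out. In PPARγ-KO liver over time the count stayed at 2 or 3.

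With the replicate block at 2 months, all genes called went from 259 higher and 260 lower to 431 and 386, and besides Acot3 (lost) and Acot1 (gained) the block changed no call of the 10 genes there. In the other comparisons libraries shared only a number (r from −0.2 to −0.0378 at 5 months, 0.0219 to 0.25 over time in wild-type and −0.00834 to 0.252 in PPARγ-KO liver). There the block took Cyp4a32 out of the wild-type calls (adjusted p = 0.0823) and added Acot2 (0.000632) and Cyp4a10 (0.0491), and it added Cyp4a32 in PPARγ-KO liver (0.0246).

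Sign changes were all of genes that were not called. Summed paralogs gave 0.16 for Cyp4a32, a sum made mostly of Cyp4a10 counts, and −0.074 for Acot1 at 5 months. In PPARγ-KO liver over time Acot2 gave −0.052 with library size alone, −0.0025 without a filter and −0.0075 with at least 10 counts in every library, and Cyp4a14 0.044 with the block. For the difference between times, library size alone gave 0.013 for Vnn1 and 0.0029 for Creb3l3. With 1 library left out, values ran from −0.46 to 0.053 for Cyp4a10 and −0.39 to 0.15 for Cyp4a31 at 2 months, and from −0.072 to 0.19 for Acot1 at 5 months. In PPARγ-KO liver over time they ran from −0.27 to 0.22 for Cyp4a10, −0.31 to 0.37 for Cyp4a14, −0.23 to 0.12 for Cyp4a31, −0.0076 to 0.35 for Acot1 and −0.073 to 0.14 for Acot2. For the difference between times they ran from −0.035 to 0.53 for Cyp4a32, −0.10 to 0.085 for Vnn1 and −0.081 to 0.029 for Creb3l3. The cause was not tested. Library size alone moved the median of all genes by less than 0.1 in every comparison.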
